A study of Mus musculus with 48 samples.

Results

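Interferon-stimulated genes are the genes that a cell switches on after interferon has bound its receptor. A list of 40 such genes was followed through 5 organs of mice with collagen-induced arthritis, a model in which immunisation with collagen leads to inflamed joints. The members were chosen by name, with earlier results of these data known, and all 40 were among the 34586 genes of the deposited count table. The measurement was the number of unique molecular identifiers (UMIs, each marking 1 captured transcript) of each gene in each mouse, organ and deposited cell type label, measured by Seq-Well, a single-cell RNA sequencing method that uses microwells.

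The animals were male DBA1/J mice aged 8 to 12 weeks. The CIA mice (S1, S2, S3, S5, S6 and S8) had received 100 µg of bovine type II collagen in complete Freund's adjuvant at the tail base and a booster on day 20, and the healthy mice (H3, H4, H6 and H7) had received saline. Lung, muscle, skin and spleen came from 4 healthy and 6 CIA mice and joint from 3 healthy and 5 CIA mice, 48 samples in all. S1, S2 and S3 had severe arthritis and were processed in 1 experiment with H3, whereas S5, S6 and S8 had mild arthritis and were processed in another with H4, H6 and H7, and within the CIA mice severity therefore cannot be told apart from experiment.

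The table held 13240 cells, of which 12096 carried a cell type label, with a median of 675 UMIs per labelled cell. Labelled cells of a sample summed to between 17748 and 1645734 UMIs. In all, 59 of 13164 barcodes were found in more than 1 sample, the most (36) between muscle and spleen of mouse S8. The samples were cryopreserved, and red cells were lysed in spleen and in 6 of the 10 muscle samples. The markers of the label were detected in each of the 11 cell type comparisons, which does not exclude other cells. In healthy muscle T cells and CIA joint macrophages, markers of another cell type summed higher than those of the label, as given below. Skin macrophages, skin endothelial cells and several other labels reached the cell minimum in too few mice for a test.

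Type I interferons act on nearly every nucleated cell, and type III interferons mainly on epithelial cells. Binding to the receptor activates the kinases JAK1 and TYK2, and a complex that includes STAT2 and IRF9 then binds the interferon-stimulated response element, a sequence with paired GAAA repeats. The products of these genes block viral entry (IFITM proteins) or hold budding virions at the membrane (BST2). Others bind viral RNA (IFIT proteins), lead to its degradation (OAS proteins) or sense it (RIG-I and MDA5, encoded by Ddx58 and Ifih1). USP18 and IRF7 feed back on the pathway. Type II interferon also induces part of the list. Ifi27l2a encodes a small hydrophobic membrane protein.

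The response element is shown because it is the sequence feature for which this gene class is known. RefSeq promoters (GRCm38.p6, from 250 bases before to 50 bases after each gene start) were matched for 30 of the 40 members. The motif GAAANNGAAA, or TTTCNNTTTC on the other strand, occurred in 15 of these 30 (50.0%), against 1079 of the 27025 genes of the count table with a promoter (3.99%). It lay wholly before the gene start in 12 members, and across or after the start in 3 (Ifih1, Ddx58 and Ifitm3). Ifi27l2a, Usp18, Mx1, Mx2, Parp14, Zbp1, Ifi204, Rtp4, Oas2 and Dhx58 had no entry. A match is a description of the sequence and not a measured binding site.

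The following stretches are read 5′ to 3′ on the strand of the gene, with the motif in capitals. Isg15, whose product is a ubiquitin-like modifier, and Oas1a carried overlapping copies, and so did Bst2. Rsad2 (viperin, which makes a chain-terminating nucleotide) and Trim30a each had 1 copy. Of the RNA-binding IFIT genes, Ifit1, Ifit3 and Ifit3b had 2 separate copies each, and Ifit2 had none.
Isg15, chr4:156200850-156200921, minus strand: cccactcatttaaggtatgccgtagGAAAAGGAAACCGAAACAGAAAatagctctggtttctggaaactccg
Bst2, chr8:71537562-71537627, minus strand: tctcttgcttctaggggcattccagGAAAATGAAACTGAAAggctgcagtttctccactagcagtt
Oas1a, chr5:120907526-120907570, minus strand: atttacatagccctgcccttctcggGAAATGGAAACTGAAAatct
Rsad2, chr12:26456538-26456597, minus strand: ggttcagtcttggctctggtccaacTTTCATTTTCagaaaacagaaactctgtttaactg
Trim30a, chr7:104465195-104465254, minus strand: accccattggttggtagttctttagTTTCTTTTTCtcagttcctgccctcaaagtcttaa
Ifit1, chr19:34640760-34640838, plus strand: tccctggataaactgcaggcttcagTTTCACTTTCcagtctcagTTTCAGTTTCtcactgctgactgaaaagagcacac
Ifit3, chr19:34583348-34583441, plus strand: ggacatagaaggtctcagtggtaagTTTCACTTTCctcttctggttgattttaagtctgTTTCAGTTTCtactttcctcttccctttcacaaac
The 94 bases shown for Ifit3 were identical in Ifit3b at chr19:34607744-34607837, and the UMIs of these near-identical genes may have been split between them.

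The members differed widely in how much could be measured. Over all labelled cells they held 27253 of 10646725 UMIs, or 2560 CPM (UMIs in 1000000 UMIs of the same cells, the scale of every level given). Ifi27l2a (6642 UMIs in 3262 cells; chr12:103442167-103443680, minus strand) and Ifitm3 (6596 UMIs; chr7:141009586-141010770, minus strand) together made up 48.6% of these. Samd9l, an antiviral factor that restrains translation, followed with 1650 UMIs, Isg15 with 1579, the nuclear body protein Sp100 with 1193 and Bst2 with 925. Ifi35 (672), the DNA-binding PYHIN gene Ifi203 (654), the transcription factor Irf7 (647) and Rsad2 (601) completed the 10 most abundant, which held 77.6%. Oas3, with 36 UMIs, was the lowest. Ifi27l2a lies beside its paralogue Ifi27l2b (chr12:103450898-103457223), and UMIs that both could have given are uncertain.

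The summed level of the members was higher in CIA mice in joint, lung, muscle and spleen. In 13 of 16 comparisons (11 cell types and 5 whole organs) every CIA mouse lay above every healthy mouse, and the exceptions were the 3 in skin. The largest ratio was in joint macrophages, at 775 CPM in H3, 840.3 in H4 and 562 in H7, against 5478 in S1, 3751 in S3, 5481 in S5 and 2195 in S8 (ratio of means 5.82). Macrophages take up debris and secrete cytokines. Cells of this label came from the whole knee joint and also held granulocyte markers, which were higher in every CIA mouse, as given below. In lung macrophages the sum was 831, 635, 865 and 326 CPM in the healthy mice and ranged from 1628 to 4885 (median 3479) in the CIA mice, a ratio of 4.90.

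Spleen monocytes reached the highest sums of any comparison. They had 1907, 1517, 2362 and 2327 CPM in the healthy mice and 5392 to 8281 (median 6499) in the CIA mice, a ratio of 3.30. Spleen B cells had a ratio of 2.24 and spleen NK cells of 2.07. All 3 spleen types were separated without overlap.

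Among the stromal and muscle cells, muscle fibroblasts held 1278 to 2581 CPM in healthy and 4277 to 6184 in CIA mice (ratio 2.72). Muscle macrophages had 1849, 1767 and 1570 against 4296, 5892, 5674 and 3189 CPM (ratio 2.75). Joint fibroblasts had 1108, 944 and 1113 CPM against 2298, 1588 and 3131 CPM (ratio 2.22). The narrowest gap was in muscle T cells, with 692, 1198 and 1010 CPM against 1659, 1234 and 2663 CPM (ratio 1.92). Without Ifi27l2a the sums still did not overlap in joint fibroblasts and macrophages, lung macrophages, muscle fibroblasts and macrophages and spleen monocytes, whereas they overlapped in muscle T cells, spleen B cells and spleen NK cells. With Ifitm3 and Bst2 left out as well, the sums also overlapped in joint fibroblasts, where healthy H4 lay above S3.

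**Figure D1:**
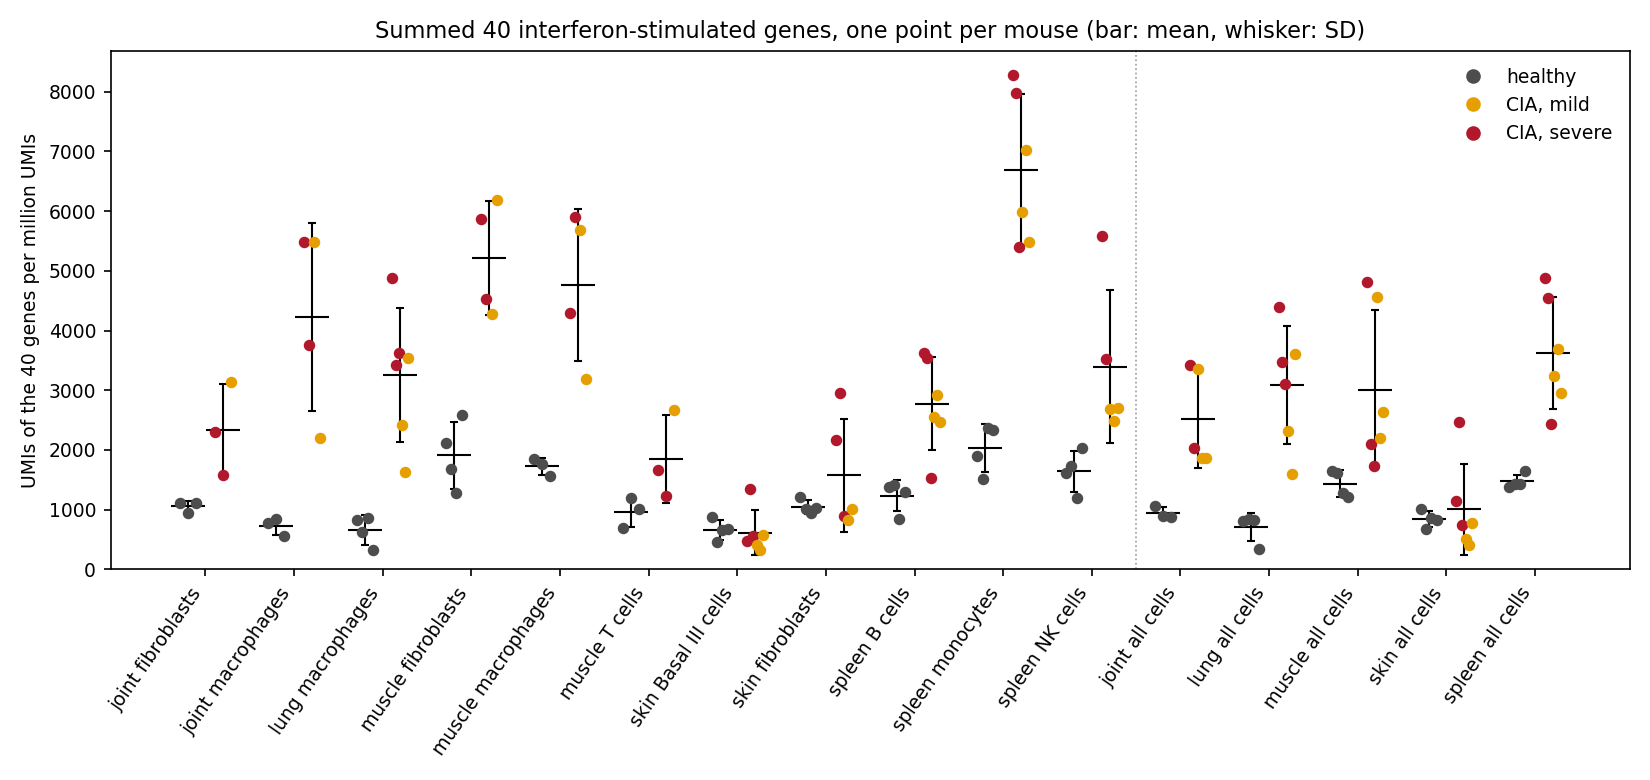
Summed level of the 40 interferon-stimulated genes (y axis, CPM) by organ and cell type, with 1 point for each mouse, healthy beside CIA, and the mean of each group. The groups are apart in every joint, lung, muscle and spleen comparison, and overlap in skin, where the ratios of means are 0.93, 1.49 and 1.19.

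Over whole organs, which mix cell types in shares that also differ between mice, a change in cell make-up and a change within cells cannot be told apart. The ratio of means was 4.36 in lung, 2.66 in joint, 2.46 in spleen, 2.10 in muscle and 1.19 in skin. Most members had a higher mean in CIA mice. In spleen the mean was higher in CIA mice for 37 of the 40 members (92.5%, against 54.0% of all genes with at least 1 UMI), in muscle for 38 of 40 (against 61.7% of genes) and in joint for 36 of 40 (90.0% against 52.7%). In the cell type comparisons the share ran from 63.0% in skin Basal III cells, against 56.1% of all genes there, to 92.3% in joint macrophages, against 55.5%. Direction alone carries no test, since most of these members had few UMIs.

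Tests were made with edgeR's quasi-likelihood test on UMIs summed per mouse. P-values were adjusted by the Benjamini-Hochberg method over all genes that passed the count filter, and a gene is called when its adjusted p is under 0.05. In the 11 cell type comparisons members were tested 26 times, the log2 fold change was positive in 24, and 9 were called, all higher in CIA mice. Of all 8258 gene tests in these fits 1.34% were called and 51.6% were positive. In the 5 organs they were tested 32 times, 31 were positive and 4 were called, against 51.5% and 0.365% of all 11791 gene tests. Only 14 members passed the filter anywhere, 26 passed it nowhere, and the calls belonged to Ifi27l2a and Ifitm3. These genes gave 9 and 9 of the 26 cell type tests, in overlapping sets of mice, so those totals mostly describe them. A gene could also pass the filter on its counts in CIA mice alone, which bears on the share of positive tests.

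**Figure D2:**
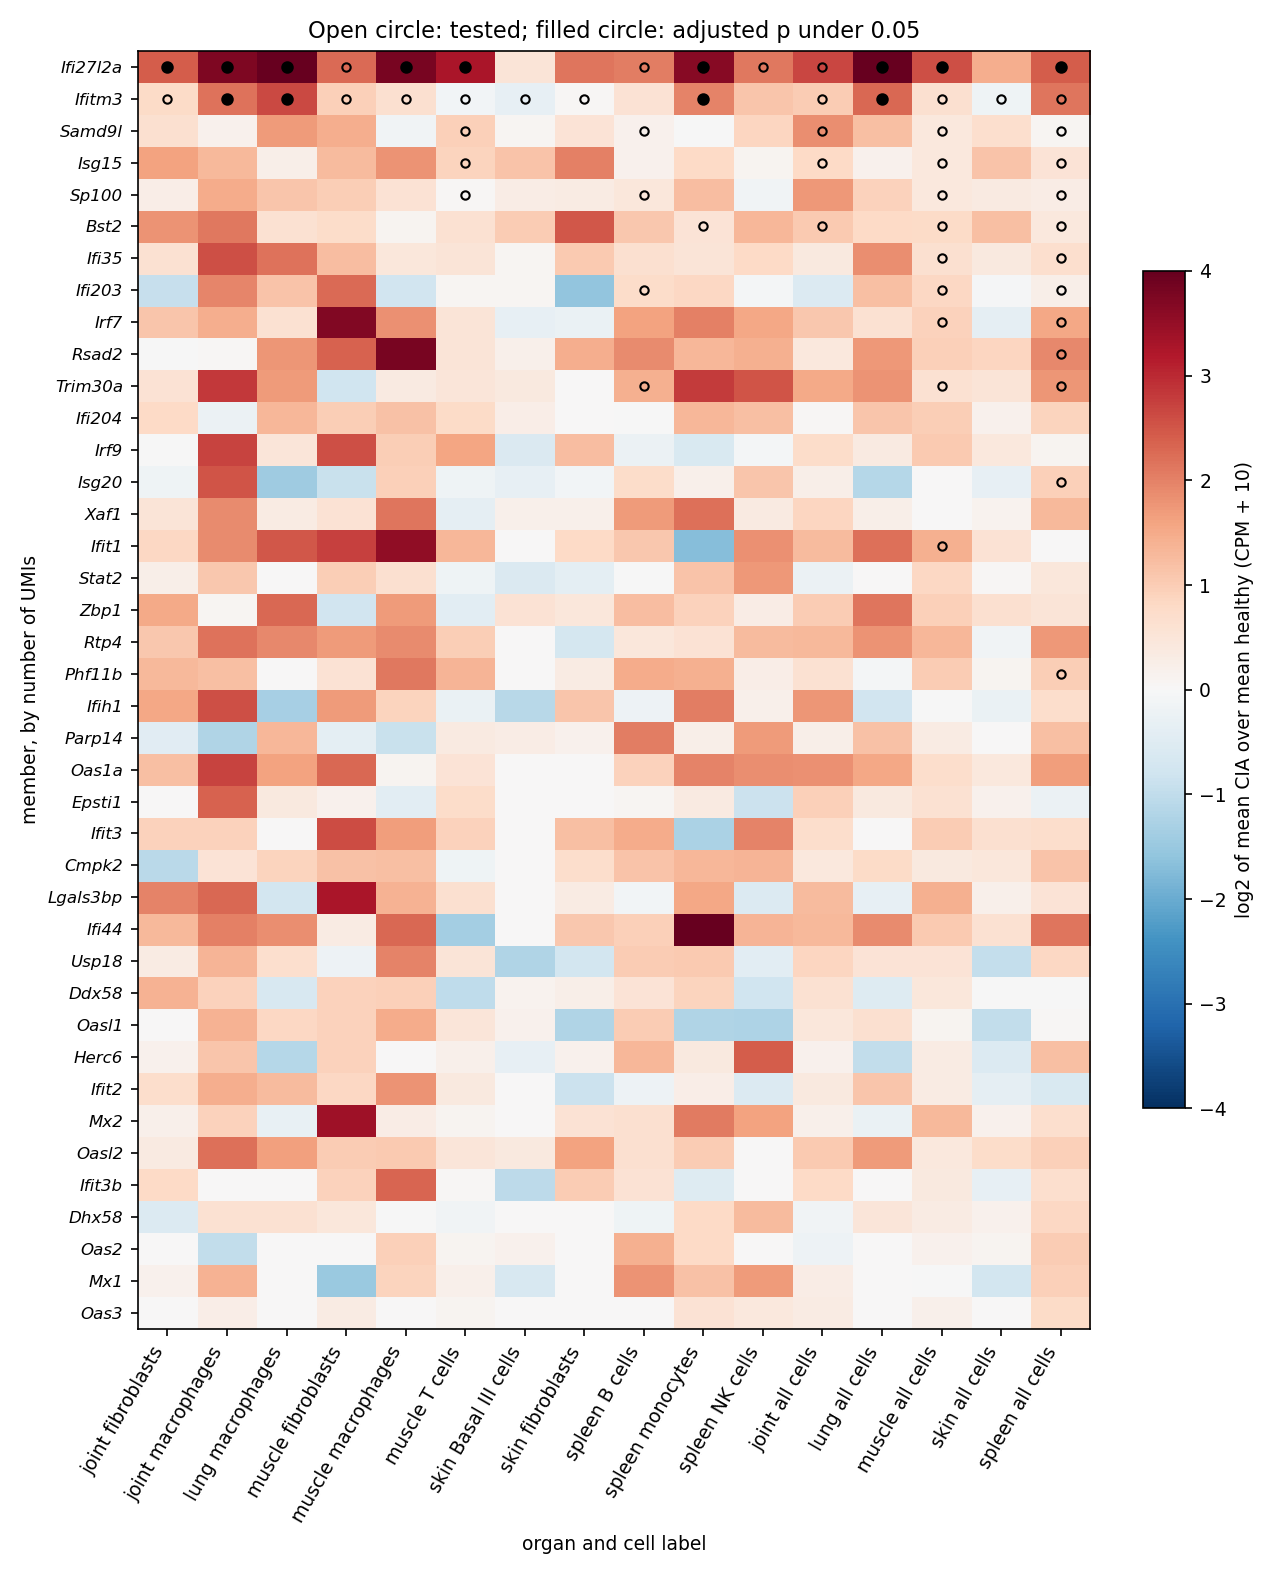
Log2 ratio of the mean CPM in CIA to that in healthy mice, each with 10 CPM added, for the 40 members (rows) in the 16 comparisons (columns), with colours ending at −4 and 4. Open circles mark members that were tested and filled circles those with an adjusted p under 0.05, which are confined to the rows of Ifi27l2a and Ifitm3 in these fits. The median over the members runs from 0.00 in skin Basal III cells to 1.42 in joint macrophages.

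Ifi27l2a rose in 6 of the 9 cell types in which it could be tested, and its levels did not overlap between healthy and CIA mice in any of the 9. In lung macrophages it was at 57.3, 67.4, 119 and 0 CPM in the healthy mice. The CIA mice had 519.8 to 2048 CPM (median 1135). The log2 fold change was 4.15 (SE 0.49, n = 4 and 6, edgeR adjusted p = 6.41e-05). Ifitm3 was called beside it, so that both members tested were called, where 6.51% of the 538 genes tested were called and 3.53% were higher in every CIA mouse.

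In spleen monocytes, precursors of tissue macrophages, Ifi27l2a was at 361, 117, 116 and 122 CPM in the healthy mice and between 1223 and 3526 (median 2162) in the CIA mice. The log2 fold change was 3.56 (SE 0.45, edgeR adjusted p = 0.000675). In joint macrophages the healthy mice had 218, 84.0 and 56.2 CPM and the CIA mice 2270, 1655, 2194 and 753 CPM. The log2 fold change was 3.49 (SE 0.49, n = 3 and 4, edgeR adjusted p = 0.00945). The lowest CIA value, in S8, was still above all of the healthy ones. Of the genes tested, 6.36% were called in spleen monocytes and 10.3% in joint macrophages, and 7.68% and 9.89% were higher in every CIA mouse.

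In muscle macrophages Ifi27l2a was the only gene of 545 called (0.183%), and in muscle T cells the only one of 1957 (0.0511%). The muscle macrophages of healthy mice had 77.0, 95.5 and 121 CPM and those of CIA mice 1714, 1672, 1789 and 775 CPM. This gave a log2 fold change of 3.92 (SE 0.50, edgeR adjusted p = 0.00459). The muscle T cells had 0, 54.5 and 70.2 CPM against 567.9, 464 and 435 CPM, with a log2 fold change of 3.03 (SE 0.47, edgeR adjusted p = 0.0369). Levels higher in every CIA mouse were found for 3.3% of the genes in muscle macrophages and 9.2% in muscle T cells. Both calls were lost when any 1 healthy mouse was left out and with a minimum of 20 cells in each mouse, and that in T cells also without S2 and with a term for the experiment or the lysis.

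Joint fibroblasts, a matrix-producing cell type taken here from the whole knee joint, had 63.3, 46.4 and 104 CPM of Ifi27l2a in healthy and 471, 321 and 486 CPM in CIA mice. The log2 fold change was 2.58 (SE 0.46, n = 3 and 3, edgeR adjusted p = 0.0282), where 1.68% of 1014 genes were called and 18.1% were higher in every CIA mouse. The call was lost without any 1 healthy mouse or without S1.

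The other 3 cell types were separated without a call. Muscle fibroblasts had 529, 229.6, 98.3 and 215 CPM against 1489, 1099, 804 and 1943 CPM (log2 fold change 2.28, SE 0.49, edgeR adjusted p = 0.137). Spleen B cells had 301, 146, 72.9 and 249 CPM against 509.8 to 1390.1 (median 693), with a log2 fold change of 2.15 (SE 0.44, edgeR adjusted p = 0.10). Spleen NK cells had 343, 270.2, 109 and 439 CPM against 2628, 1235, 977, 906 and 722 CPM (log2 fold change 2.07, SE 0.49, edgeR adjusted p = 0.281). In these 3 fits edgeR called no gene (0%). At an unadjusted p under 0.05 it had 2 of 2 members tested in muscle fibroblasts, 2 of 5 in B cells and 1 of 1 in NK cells, against 6.36%, 3.19% and 2.61% of all genes tested. Without S8, edgeR called 1 member in B cells. Without the count filter it called Ifi27l2a in B cells (0.0831% of genes called) and NK cells (0.0971%). DESeq2 called Ifi27l2a in each, and Ifitm3 in muscle fibroblasts, where it called 1.73%, 0.32% and 0.713% of genes. The share of genes higher in every CIA mouse was 2.31%, 0.479% and 0.95%.

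**Figure D3:**
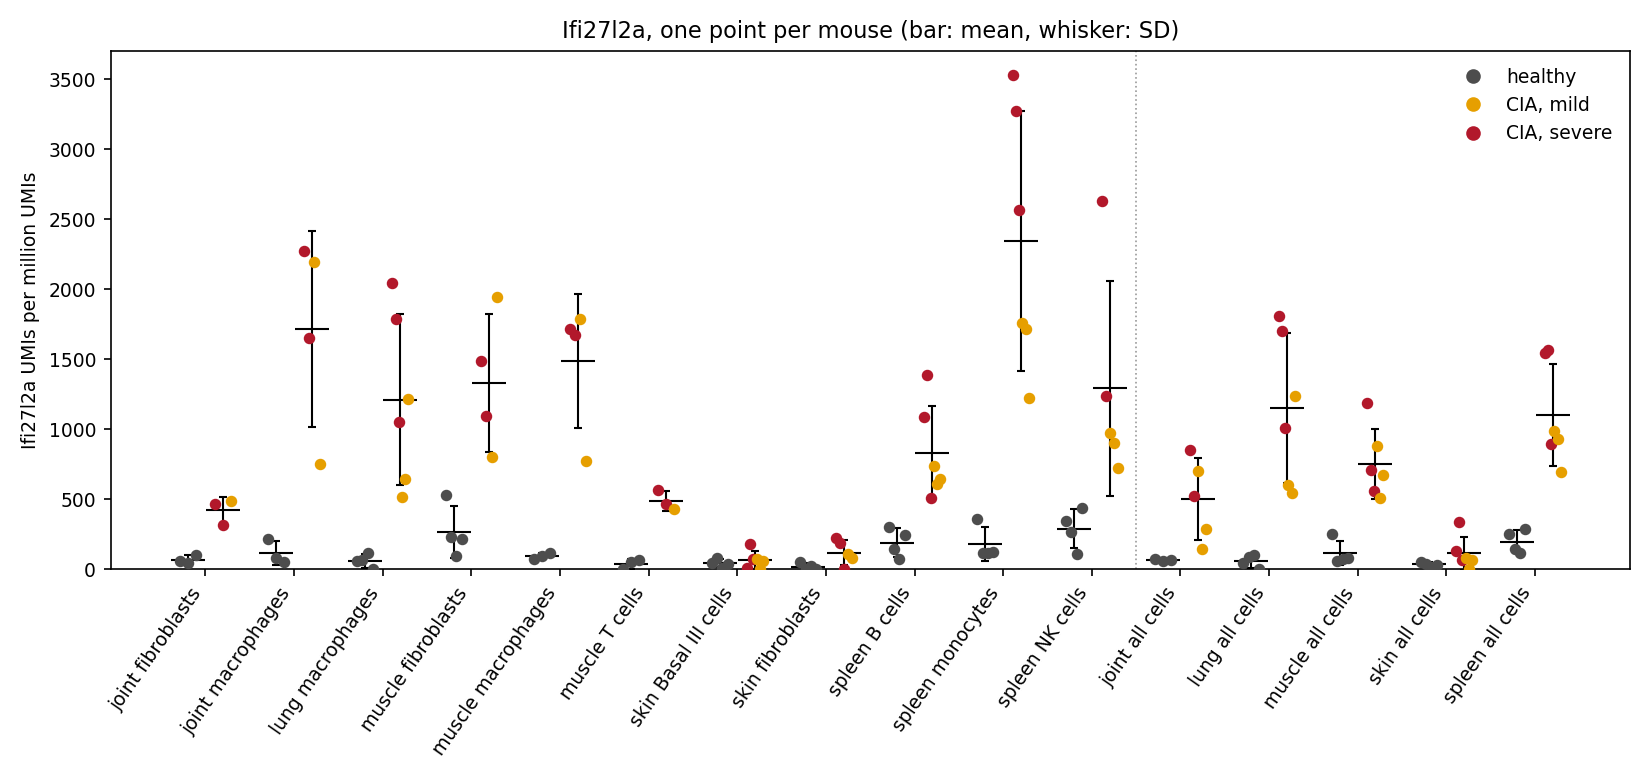
Level of Ifi27l2a (y axis, CPM) in each mouse by organ and cell type, healthy beside CIA, with group means. In the 9 cell types of joint, lung, muscle and spleen all CIA mice are above all healthy mice, for example 1223 to 3526 against 116 to 361 in spleen monocytes, and in skin the groups overlap.

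The separation also held for the share of cells with an Ifi27l2a UMI after each cell had been thinned to 400 UMIs. No labelled cell was shallower than this. In spleen monocytes the share was 6.65% ± 5.2 (SD, n = 4) in healthy and 50.9% ± 12.96 (n = 6) in CIA mice, or 14.0% and 67.3% before thinning, at median depths of 719.5 and 794.5 UMIs. In lung macrophages it was 1.89% ± 2.10 and 33.9% ± 12.1, or 2.74% and 43.8% before thinning. In joint macrophages it was 4.19% ± 2.38 and 43.9% ± 11.9, and in muscle macrophages 4.30% ± 1.73 and 39.7% ± 9.26. The shares in lymphocytes were 1.122% ± 1.13 and 15.3% ± 0.57 in muscle T cells, and 6.48% ± 3.36 and 26.5% ± 7.28 in spleen B cells. As a level that free RNA could give, labelled spleen erythrocytes had 5.88% ± 2.00 (n = 2) and 9.27% ± 3.26 (n = 4), which overlapped. The healthy shares in lung, joint and muscle macrophages and muscle T cells lie below the first of these values and are not read as expression. Those in healthy spleen monocytes and B cells lie close to it, and are not read as expression either. Free RNA in lung, joint and muscle was not measured.

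Other members were found in more cells too. The share of thinned cells with a UMI of any member other than Ifi27l2a, Ifitm3 and Bst2 was 34.3% ± 1.54 in healthy and 64.9% ± 6.59 in CIA spleen monocytes. It was 22.5% ± 8.42 and 54.2% ± 12.1 in muscle fibroblasts and 14.8% ± 2.33 and 27.1% ± 7.99 in lung macrophages, without overlap in these 3. It overlapped in spleen B cells, spleen NK cells, muscle T cells, joint fibroblasts and skin.

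The mild mice were processed with 3 of the 4 healthy mice, which allowed a comparison within that experiment. There the log2 fold change of Ifi27l2a was 3.49 in lung macrophages (edgeR adjusted p = 0.0124), 3.48 in spleen monocytes (edgeR adjusted p = 0.00194) and 4.43 in joint macrophages (edgeR adjusted p = 0.0412), called in each. The joint macrophage fit held only H4 and H7 against S5 and S8, below the minimum of 3 mice of each group in the main fits. Ifi27l2a had 1 UMI there in each of H4 and H7 and 12 in S8. The log2 fold change was 3.82 in muscle macrophages (H4, H6 and H7 against S5 and S6), without a call (edgeR adjusted p = 0.075). Joint fibroblasts and muscle T cells had too few mice for this, and the experiment of the severe mice held 1 healthy mouse and gave no test. With the experiment as a term in the fit of all mice, the call was kept in joint fibroblasts (2.66, edgeR adjusted p = 0.0485), joint macrophages, lung macrophages, muscle macrophages and spleen monocytes, and lost in muscle T cells (2.77, edgeR adjusted p = 0.486). In the mild experiment alone Ifi27l2a was also called over the whole lung (3.35, edgeR adjusted p = 0.00884) but not over the whole spleen (2.25, edgeR adjusted p = 0.245) or muscle (3.11, edgeR adjusted p = 0.178). Leaving out the cells of shared barcodes, a setting chosen after seeing the data, kept the Ifi27l2a call in joint fibroblasts (2.5001), lung macrophages (4.16), muscle macrophages (3.88) and spleen monocytes (3.62).

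Ifitm3, whose product traps viruses in endosomes, rose in joint and lung macrophages and in spleen monocytes, and was not called by edgeR in fibroblasts or muscle macrophages. In lung macrophages it was at 201, 116, 149 and 97.7 CPM in healthy and 281 to 1533 (median 1065) in CIA mice, a log2 fold change of 2.62 (SE 0.47, edgeR adjusted p = 0.0017). In joint macrophages it was at 242, 168 and 281 CPM against 1321, 772, 1556 and 627 CPM (log2 fold change 2.14, SE 0.38, edgeR adjusted p = 0.00997). This call was lost without H7. In spleen monocytes it was at 258, 138, 271 and 449 CPM against 770.2 to 1671 (median 1024), with a log2 fold change of 1.87 (SE 0.37, edgeR adjusted p = 0.0159). That call was lost without H4 or H6. In the mild experiment alone Ifitm3 was not called in joint macrophages (log2 fold change 2.27, edgeR adjusted p = 0.112) or spleen monocytes (1.70, edgeR adjusted p = 0.125), and in lung macrophages it did not pass the filter there.

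Healthy fibroblasts already expressed Ifitm3. Muscle fibroblasts had 838, 842, 492 and 1004 CPM in healthy and 1489, 1305, 1858 and 1536 CPM in CIA mice, without overlap (log2 fold change 1.11, SE 0.29, edgeR adjusted p = 0.158). Joint fibroblasts had 696, 434 and 647 CPM against 1063, 714 and 1266 CPM, again apart (log2 fold change 0.73, SE 0.36, edgeR adjusted p = 0.334). In muscle macrophages 1 CIA mouse stood out, with 925, 429.9 and 634 CPM against 709, 717, 2040.4 and 729.8 CPM, and the groups overlapped (log2 fold change 0.85, edgeR adjusted p = 0.723). In muscle T cells the log2 fold change was 0.04 and in skin Basal III cells −0.33 (SE 0.38), with overlap in both.

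Markers of other cells moved with several of these results. In CIA lung macrophages the 5 monocyte markers (among them Ly6c2 and Ccr2) summed to 1386 to 3581 CPM against 143 to 537 in healthy mice, and the 5 alveolar macrophage markers to 766 to 1160.1 against 1759 to 2695. In spleen monocytes the monocyte markers summed to 3976 to 7365 against 1358 to 2268 CPM. Those in joint macrophages summed to 2258 to 4859 against 674 to 1355 CPM, whereas their 5 macrophage markers (564 to 2049.8 against 1936 to 3539.9) overlapped. The 5 granulocyte markers (such as S100a8 and S100a9) were higher in every CIA mouse in the lung macrophages (580.0 to 14700 against 356 to 545), joint macrophages (33564 to 59827 against 924 to 8302), joint fibroblasts (13319 to 29520 against 1394 to 5952), spleen monocytes (2708 to 24069 against 722 to 1020.5), B cells (2012 to 22721 against 850.3 to 1533) and NK cells (2433 to 11312 against 833 to 1385). In muscle fibroblasts the monocyte markers summed to 343 to 956 against 0 to 215 CPM, with 4 of 5 detected and Ccr2 at 0. The macrophage markers there, with 3 of 5 detected and C1qa and Adgre1 at 0, summed to 0 to 76.4 CPM in CIA and 0 to 71.7 in healthy mice, which overlapped. In muscle T cells the erythrocyte markers were lower in CIA mice, at 226 to 5803 against 31771 to 90028 CPM, and the 5 T cell markers higher, at 401 to 879 against 106 to 316. In muscle macrophages the macrophage markers (385 to 785 against 387 to 1118 CPM) and the monocyte markers (1385 to 3698 against 1971 to 2823) overlapped. The part of these markers in the results was not tested.

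Over all labelled spleen cells, where most members could be tested, 13 of the 40 passed the filter and every one had a positive log2 fold change, with a median of 1.16 against −0.01 over all genes tested. Ifi27l2a was the one called by edgeR, at 251, 143, 115 and 288 CPM in healthy and 695 to 1563 (median 962) in CIA mice (log2 fold change 2.55, SE 0.39, edgeR adjusted p = 0.0146). It was 1 of 4 genes called among 2927 (0.137%), and the call was lost without any 1 healthy mouse, whereas 2 members were called without S5 or without S8. DESeq2 called 5 members, Ifi27l2a, Ifitm3, Rsad2, Irf7 and Trim30a, where it called 1.78% of genes. Ifitm3, Rsad2 and Irf7 also did not overlap between the groups, so that 4 of 13 members were higher in every CIA mouse, where 1.09% of all genes tested were. The monocyte markers were also higher in every CIA spleen, at 1469 to 2731 against 678 to 1382 CPM, and their part in these values was not tested.

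Ifitm3 in spleen was at 91.0 ± 27.1 CPM (SD, n = 4) in healthy and 439 ± 223 (n = 6) in CIA mice, with a log2 fold change of 2.41 (SE 0.47, edgeR adjusted p = 0.0701). Rsad2 was at 8.98, 26.8, 21.0 and 34.2 CPM against 60.3 to 213 (median 85.7), with a log2 fold change of 2.36 (SE 0.55, edgeR adjusted p = 0.109). Irf7, the factor that amplifies interferon production, was at 35.9, 34.0, 21.0 and 13.7 CPM against 55.8 to 155 (median 92.9), with a log2 fold change of 1.85 (SE 0.44, edgeR adjusted p = 0.123). Trim30a, a regulator of inflammatory signalling, was at 8.98, 55.9, 10.49 and 68.5 CPM against 65.1 to 189 (median 145), which overlapped (log2 fold change 1.84, SE 0.47, edgeR adjusted p = 0.166).

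The other members tested in spleen had smaller log2 fold changes. The log2 fold change was 1.21 for the exonuclease Isg20, 1.16 for Phf11b, 0.86 for Isg15, 0.79 for Ifi35 and 0.54 for Bst2. It was 0.32 for Sp100, 0.25 for Ifi203 and 0.06 (SE 0.27) for Samd9l. Samd9l was at 242, 231, 157 and 212 CPM in healthy and 167 to 329 (median 202) in CIA mice, so that the third most abundant member did not separate the groups. The edgeR adjusted p was between 0.573 and 0.994 for these 8. At an unadjusted p under 0.05 edgeR had 8 of the 13 members, and 6.46% of all genes tested.

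**Figure D4:**
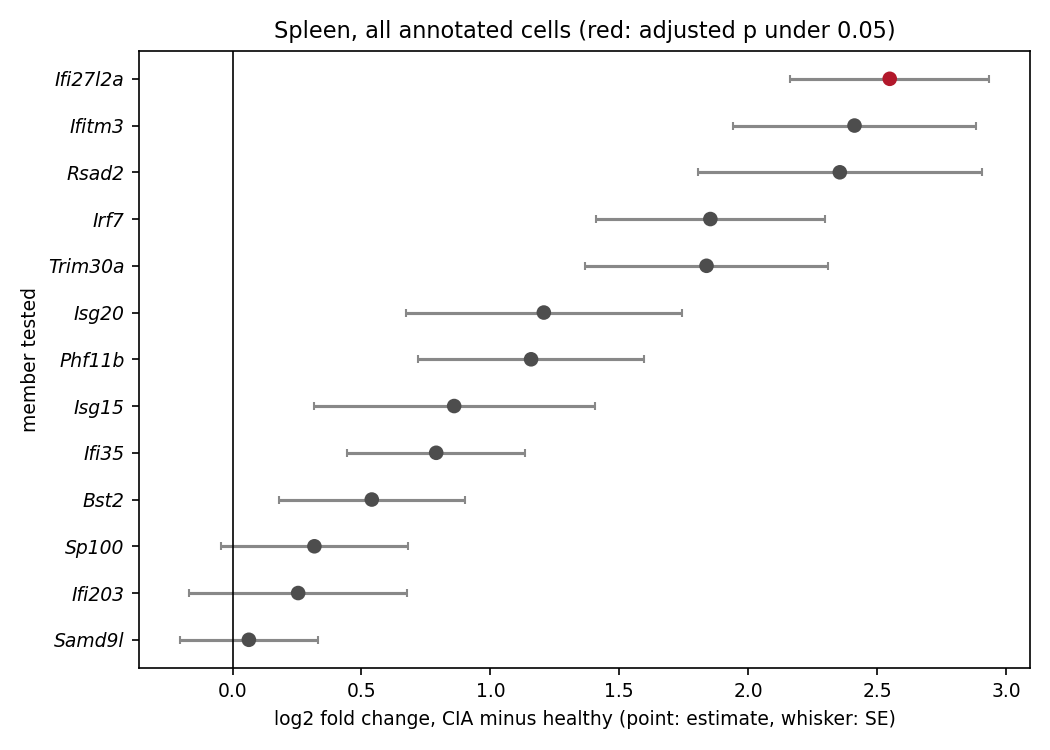
Log2 fold change, CIA against healthy (x axis), with its SE for the 13 members tested over all labelled spleen cells, ordered by size. All 13 lie above 0, from 0.06 for Samd9l to 2.55 for Ifi27l2a, which is the one drawn in red as called by edgeR, whereas DESeq2 called 5 of them.

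Without the count filter 9 members were called in spleen, where 0.747% of 23012 genes were. They were Ifi27l2a, Ifitm3, Rsad2, Irf7 and Trim30a with 4 members of low count. Oas1a, which makes the activator of RNase L, had 1 UMI in all healthy and 69 in all CIA mice, Rtp4 had 1 and 79, Xaf1 had 11 and 145, and Ifi44 had 0 and 69. Ifi44 was found in 6 of 6 CIA mice. Its 0 of 763958 healthy UMIs allows up to 3.93 CPM (3 counts over the group), so that its 35.1 CPM over the CIA mice was at least 8.93-fold higher. In spleen monocytes Ifi44 had 0 UMIs of 164003 in healthy and 51 in CIA mice, again in 6 of 6, and was at least 7.83-fold higher. There 4 members were called without the filter, Ifi27l2a, Ifitm3, Ifi44 and Trim30a (5 and 99 UMIs), where 0.485% of 16691 genes were. These limits cover counting error only.

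By role, and as values without a test, the summed mean of the OAS family was 9.88 CPM in healthy and 64.7 CPM in CIA spleen. It was 18.7 and 114 CPM in joint macrophages and 26.95 and 110 CPM in lung macrophages. The IFIT family was at 0 in healthy muscle fibroblasts, muscle macrophages, lung macrophages and joint macrophages, and at 124, 194, 60.4 and 53.8 CPM in the CIA mice, on 46, 13, 15 and 12 UMIs. These zeros are not read as absence. With 3 counts over the group, 0 allows up to 50.1 CPM in healthy muscle fibroblasts and 42.2 CPM in healthy joint macrophages. In muscle macrophages 9 of the 13 UMIs came from S3, and the CIA mean was 19.1 CPM without it. In lung macrophages it was 30.8 CPM without S5. In spleen monocytes the IFIT family went the other way, with 93.0 CPM in healthy and 23.1 CPM in CIA mice. That rests on few UMIs, since Ifit1 had 4 in the healthy and 4 in the CIA mice, of which 3 came from H6 and 3 from S2. Irf7, Irf9 and Stat2, the transcription factors of the list, summed to 41.2 and 303 CPM in muscle fibroblasts (184 CPM without S1) and to 90.1 and 175 CPM in spleen. The 4 nucleic acid sensors summed to 53.4 and 61.3 CPM in lung macrophages and 52.9 and 87.1 CPM in spleen. They were lower in CIA mice in muscle T cells (95.1 and 58.8 CPM) and skin Basal III cells (23.1 and 13.1 CPM). Both directions rest on H4, which held 2 UMIs of Ifih1 in each label. In muscle T cells these gave 106 CPM, against 10.9 in H6 and 7.02 in H7. In Basal III cells they gave 82.3 CPM, against 0 in the other healthy mice. In Basal III cells the IFIT family (10.9 and 0 CPM, on 2 UMIs of Ifit3b in H3) and the transcription factors (49.2 and 25.4 CPM) were lower too. The mean in CIA mice was the higher one in 14 of 16 comparisons for the IFIT family and the sensors, and in 15 of 16 for the OAS family and the transcription factors.

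In the whole lung Ifi27l2a was at 45.4, 87.1, 103 and 0 CPM against 543 to 1809 (median 1124), with a log2 fold change of 4.00 (SE 0.46, edgeR adjusted p = 3.53e-05). Ifitm3 was at 227, 166, 129 and 146 CPM against 317 to 1337 (log2 fold change 2.21, SE 0.41, edgeR adjusted p = 0.00226). Both members tested in lung were called and higher in every CIA mouse, where 4.96% of 686 genes were called and 3.06% were higher in every CIA mouse. Of the 814 labelled lung cells, 677 were macrophages, so that these values and those of lung macrophages share their cells.

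In the whole muscle Ifi27l2a was at 250.2, 63.0, 76.3 and 82.5 CPM against 511 to 1189.5 (median 691), with a log2 fold change of 2.68 (SE 0.44, edgeR adjusted p = 0.0456). It was 1 of 2 genes called among 3634 (0.055%), and 0.66% were higher in every CIA mouse. The call was lost without any 1 mouse other than H3, and without the cells of shared barcodes (log2 fold change 2.65, edgeR adjusted p = 0.0711). The granulocyte markers were lower in every CIA muscle, at 2631 to 26849 against 33862 to 100430 CPM, and their part in the result was not tested. The other 10 members tested in muscle were not called. Irf7 was at 39.7 ± 13.9 and 84.7 ± 37.0 CPM (log2 fold change 0.91, SE 0.40), and Ifitm3 ranged from 116 to 1887 CPM among the CIA mice, highest in S5 and S1.

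In the whole joint no member was called by edgeR, where 0.127% of 2364 genes were, and 4 of 5 members had an unadjusted p under 0.05, against 10.7% of genes. DESeq2 called 2, Ifi27l2a and Samd9l, where it called 1.95% of genes. Ifi27l2a was at 77.9, 64.1 and 69.5 CPM against 853, 526.1, 706, 143 and 286 CPM (log2 fold change 3.05, SE 0.65, edgeR adjusted p = 0.087). Samd9l was at 111, 57.0 and 13.9 CPM against 188, 154, 300.0, 175 and 429.5 CPM (log2 fold change 2.11, SE 0.62, edgeR adjusted p = 0.205). Leaving out S6 gave 1 call, and so did fitting without the count filter, where 0.274% of genes were called. With Ifitm3 (log2 fold change 1.22, SE 0.43), 3 of the 5 members were higher in every CIA mouse, where 2.75% of genes were.

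Skin showed no difference that held in every mouse. In Basal III cells, keratinocytes of the basal layer marked by Krt14 and Krt5, the summed level was 452 to 870.1 CPM in healthy and 325 to 1345 (median 525) in CIA mice, and without S2 the highest CIA value was 584. In skin fibroblasts the sum was 1217, 1019.7, 944 and 1031 CPM against 2170.0, 2959, 893, 834 and 1013 CPM, with the high values in S1 and S2. Over all skin cells it was 682 to 1018 against 408 to 2465 CPM (median 759.9), again highest in S2.

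Ifi27l2a did not pass the filter in skin. In Basal III cells it was at 43.5, 82.3, 10.1 and 40.8 CPM in healthy and 0 to 179 (median 67.7) in CIA mice. Ifitm3 was the 1 member tested in each of the 3 skin fits, with log2 fold changes of −0.33, 0.16 and −0.15, and it was not called. edgeR called no gene in Basal III cells (0%), skin fibroblasts (0%) or all skin cells (0%). The member had an unadjusted p under 0.05 in none, and DESeq2 called 0%, 0.287% and 0.943% of genes and not Ifitm3. Levels higher in every CIA mouse were found for 1.02%, 1.15% and 0.917% of genes, and not for Ifitm3. Without the filter Ifi27l2a was called over all skin cells (log2 fold change 2.09, edgeR adjusted p = 0.0075), where 0.152% of genes were. Most of its CIA UMIs there came from S2, with 80, against 16 in S1 and 0 to 12 in the other CIA mice. The mild mice had 0 to 84.1 CPM.

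The difference of the CIA effect between cell types or organs was tested as an interaction. No member was called by edgeR in any of these tests, and Ifi27l2a was called in 6 cell types and not in others without a tested difference. The nearest were in spleen. The log2 fold change of Ifi27l2a was lower in B cells than in monocytes by −1.54 (SE 0.67, unadjusted p = 0.0301 and adjusted p = 0.834 over 1044 genes, of which 0.192% were called), and −1.46 with the mouse as replicate block (adjusted p = 0.0652). It was higher in monocytes than in NK cells by 1.60 (SE 0.70, edgeR adjusted p = 0.899, 0.192% called), and by 1.66 with the replicate block (adjusted p = 0.0619). Between lung and muscle macrophages the CIA effect on Ifitm3 differed by 1.76 (SE 0.69, edgeR adjusted p = 0.253, 1.2% of genes called).

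Among CIA mice, severe and mild arthritis were compared in 18 fits, and no member was called by edgeR with the count filter. Ifi27l2a in spleen monocytes was at 1223 to 1756 CPM in the 3 mild and 2567 to 3526 in the 3 severe mice, without overlap (log2 fold change 0.97, SE 0.30, edgeR adjusted p = 0.13). Its log2 fold change was 0.96 (SE 0.31, edgeR adjusted p = 0.163) in lung macrophages and 1.26 (SE 0.35, edgeR adjusted p = 0.0582) in spleen NK cells. In spleen B cells it was 0.91 (edgeR adjusted p = 0.132) and over all spleen cells 0.75 (edgeR adjusted p = 0.146). Over all muscle cells the log2 fold change of Ifi27l2a was 0.03. The share of genes called was 0.932% in spleen monocytes, 0.417% in lung macrophages, 6.12% in NK cells, 5.93% in B cells and 10.2% over all spleen cells. Since the severe mice and the mild mice were processed in different experiments, these values hold both differences.

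Most CIA mice changed rank between organs, and S1 did so least. S1 had the highest summed level among CIA mice in joint (3430.0 CPM), lung (4386), muscle (4817) and spleen (4879.6) and the second highest in skin (1143). S2 was highest in skin (2465) and second in spleen (4549.5), but ranked 5 of 6 in muscle (2103). S3, which also had severe arthritis, was lowest in muscle (1735) and spleen (2436). With 3 severe mice these ranks are a description.

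**Figure D5:**
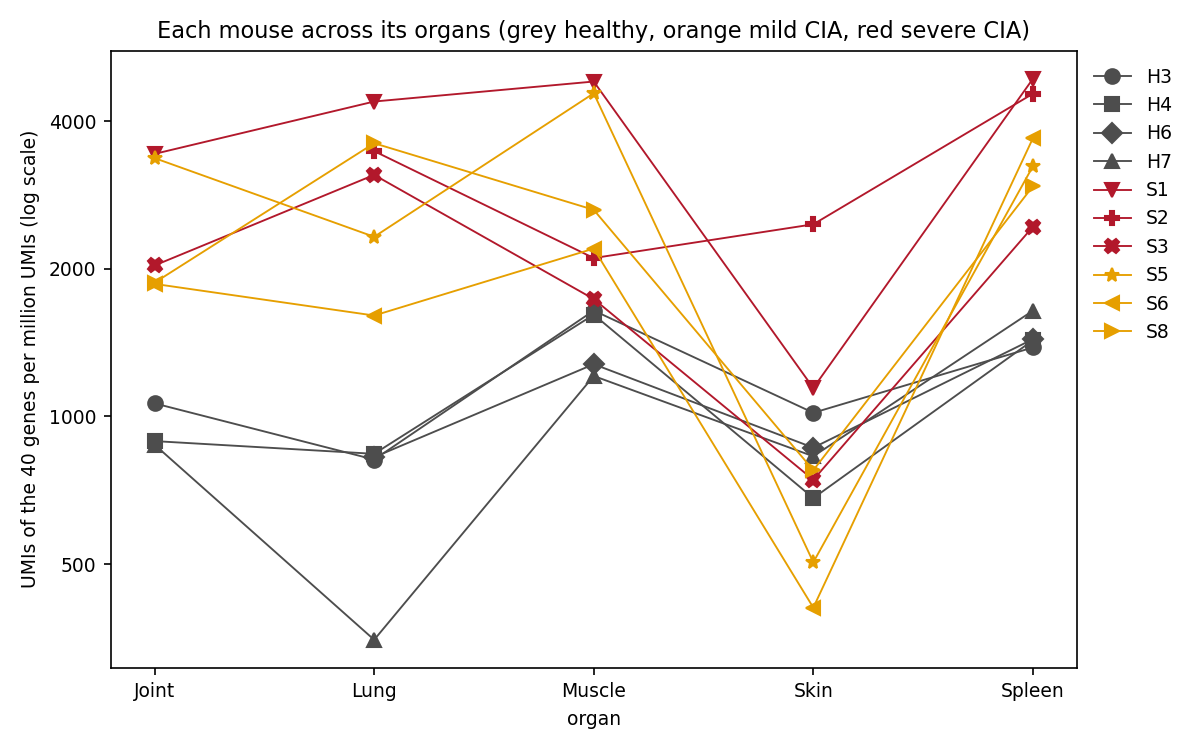
Summed level of the 40 members over all labelled cells (y axis, CPM, log scale) in each organ, with 1 marker shape for each mouse, joined by a line where neighbouring organs both have a value and coloured as healthy, mild or severe. All CIA mice are above all healthy mice in joint, lung, muscle and spleen, and in skin the 4 healthy mice lie among the CIA mice.

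Labels with too few mice for a test showed values on the same side in most cases. Joint T cells summed to 290.2 and 499 CPM in the 2 healthy and 1187 to 1865 in the 4 CIA mice. Spleen T cells had 620.1 and 1311 CPM against 1962 to 4606, and joint endothelial cells 1915 and 1940.2 against 2409 to 4079. Muscle NK cells had 1073 and 1380.5 CPM against 2438 and 3235. Spleen dendritic cells, a label for which the study's marker table lists Ifit1, a member, had 1387 CPM in H4 and 2144 to 4545 in 5 CIA mice. Spleen erythrocytes overlapped. Muscle B cells had 3784 CPM in H6 and 2276 in S8, with the healthy mouse higher.

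No gene of the wider pathway was called by edgeR, and DESeq2 also called 0. Of a list of 34 ligands, receptors, kinases, transcription factors and inhibitors, 32 were in the table, and they were tested 47 times over the 16 comparisons. No test reached an adjusted p under 0.05, where 1.34% of all gene tests in the cell types and 0.365% in the organs did. In the comparisons with a pathway test, 2.61% (spleen NK cells) to 17.8% (joint fibroblasts) of genes had an unadjusted p under 0.05. So did 3 of the pathway tests. Of these, 2 were of Ifngr1, a chain of the type II interferon receptor, in muscle T cells (log2 fold change 1.33, SE 0.53, edgeR adjusted p = 0.675) and over all muscle cells (1.70, SE 0.46, edgeR adjusted p = 0.368). Beside the shares over all genes, neither count is read as a result about the pathway. Most of the pathway's genes were too low to test at this depth.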

How the data were processed

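Seq-Well single-cell RNA sequencing was analysed in 5 organs of 4 healthy and 6 CIA mice. The authors aligned the reads with STAR to the mouse genome GRCm38 and counted UMIs per gene and cell with Drop-seq tools, and they deposited the raw counts together with cell type labels made from denoised values, a reference and marker genes. Labelled cells were used as deposited. The authors had removed cells with very many transcripts because of the risk of duplicates (doublets), and no further doublet filter was applied here. The deepest labelled cell held 6239 UMIs.

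The 40 members, the pathway list and the tests were chosen with earlier results of these data known. For each mouse and organ the UMIs of all cells with the same label were added up (at least 10 cells, in at least 3 mice of each group) and over all labelled cells of an organ. Genes were filtered with filterByExpr, scaled by TMM and tested with edgeR 4.0.16 (R 4.3.3, glmQLFit and glmQLFTest). P-values were adjusted by the Benjamini-Hochberg method over all genes tested in a fit, with a threshold of 0.05. CPM were computed from all UMIs of the same cells. DESeq2 1.42.0 was an alternative. The procedure was tested on simulated data. Between cell types and organs of the same mice, the interaction was fitted without and with the mouse as replicate block, since 1 animal gave several samples. Totals of annotated cells ranged from 17748 to 1645734 UMIs per sample, and intervals and limits from counts cover counting error only.

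Named are Ifi27l2a in every comparison, every member called, the 10 members with most UMIs, up to 5 tested members per comparison with the largest change whose groups did not overlap, and called genes of the pathway list. Others named were chosen after their values were seen. Alternatives were plain library size and RLE scaling, no filter, other cell minimums, experiment or lysis terms, the experiment of the mild mice alone, leaving out each mouse and, chosen after seeing the data, leaving out cells of shared barcodes. The value of 1 gene of the pathway list is not reported here.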

Additional observations from a re-analysis of the deposited data

Results flagged for a closer look

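In 7 of 60 groups of 4 to 10 mice, 1 mouse lay far from the others by Dixon's criterion, where chance gives about 1 in 20. Among healthy mice, H7 had a summed level of the members of 350.54 CPM over all lung cells, with the nearest at 816.79. H3 had 250.17 CPM of Ifi27l2a over all muscle cells (nearest 82.453) and 360.77 CPM in spleen monocytes (nearest 122.46). Among CIA mice, S6 was low for Ifi27l2a in muscle macrophages, at 774.8 CPM (nearest 1672.1), and S1 was high in spleen NK cells, at 2628.4 CPM (nearest 1235.4). S2 was high for the summed members in skin Basal III cells, at 1345.1 CPM (nearest 584.09), and over all skin cells, at 2464.8 CPM (nearest 1143.0).

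The 1144 cells without a cell type label entered no comparison. Pooled over mice, Ifi27l2a in these cells was higher in CIA than in healthy mice in each organ, at 1208.1 against 0 CPM in joint (152 and 27 cells), 690.74 against 109.31 in lung, 473.33 against 37.168 in muscle, 168.17 against 68.833 in skin and 884.11 against 84.792 in spleen. Their summed members were at 3755.0 against 283.05 CPM in joint, 2072.2 against 692.27 in lung, 2374.8 against 1133.6 in muscle, 1009.0 against 481.83 in skin and 3432.0 against 1324.9 in spleen. These differences were not tested.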

How the results depend on the processing

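The Ifi27l2a log2 fold change was positive in 219 of 219 alternatives over 13 comparisons, from 1.47 to 4.64, and kept its side of the threshold in 171. Counts of called members depended on the settings, and the causes were not tested. DESeq2 called 2 members in muscle fibroblasts, 1 in spleen B cells, 1 in spleen NK cells, 2 in joint and 5 in spleen, where it called 0.32% to 1.95% of genes. Without a filter 1 was called in spleen B cells, 1 in NK cells, 4 in monocytes, 9 in spleen, 1 in joint and 1 in skin. Between severe and mild mice, 2 were called without a filter in each of skin and spleen erythrocytes. The share of all genes called is not set beside those last counts, so they are not read as a result about the members. Plain library size left 0 in joint fibroblasts and in muscle. So did a minimum of 5 cells in joint fibroblasts, RLE scaling and leaving out shared barcodes in muscle, 20 cells in muscle macrophages and T cells, the experiment term in muscle T cells and muscle, and the lysis term in muscle T cells. The experiment of the mild mice alone left 1 in joint macrophages, lung macrophages, spleen monocytes and lung, and 0 in muscle macrophages, muscle and spleen. With the mouse number as replicate block, 1 was called in lung macrophages and 0 in lung and in muscle. These numbers are shared by different animals, and only 3 and 6 occur in both groups (correlations −0.28 to 0.34 across genes), so they do not pair the samples. Leaving out 1 mouse gave 0 to 1 in joint fibroblasts, muscle macrophages, muscle T cells, spleen B cells, joint and muscle, 1 to 2 in joint macrophages and spleen monocytes and 0 to 2 in spleen.

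The log2 ratio of summed members turned positive in skin Basal III cells as a mean over cells (0.010) and when a mouse was left out (−0.49 to 0.052). It turned negative in the mild experiment alone in skin fibroblasts (−0.11) and skin (−0.49), and in skin without S2 (−0.25 to 0.41 over the mice left out). In Basal III cells the unthinned shares gave −0.0003 percentage points for Ifi27l2a and −3.6 for other members. It moved to 1.01 in muscle macrophages, 1.23 in spleen monocytes and 0.98 in spleen without Ifi27l2a. Without Ifi27l2a, Ifitm3 and Bst2 it was 1.88 in joint macrophages, 1.35 in lung macrophages, 1.14 in spleen monocytes, 0.59 in NK cells, 1.19 in lung and 0.85 in spleen. With TMM it was 1.39 in spleen monocytes. Most members were too low to test in single cell types at this depth.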
